A study of Mus musculus with 6 samples.

Results

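Respiratory complex I is described here by every gene of the deposited table whose name begins with Nduf, after names containing -ps were left out. Of the 26529 genes in the table, 45 met this rule, of which 37 are named as subunits and 8 as assembly factors (names beginning with Ndufaf). The rule used names only and no measured value. The study cultured bone marrow-derived macrophages of wild-type C57BL/6 mice aged 8 weeks with RANKL (10 ng/ml) and M-CSF (20 ng/ml), the cytokines that turn macrophages into bone-resorbing osteoclasts. Both groups received both cytokines. The labels give 3 libraries, OCP, as osteoclast precursors at culture day 3 and 3 libraries, OC, as osteoclasts at culture day 6, names that the marker genes go against. Stage and time in culture cannot be told apart. The series title names a GSD mouse model, but the labels give all 6 libraries as wild type. Whether replicates are separate mice or separate cultures is not said in the labels, and p-values measure only the spread between these libraries, which may be technical.

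Complex I, NADH:ubiquinone oxidoreductase, is the entry point of electrons from NADH into the respiratory chain and pumps protons across the mitochondrial inner membrane. Its matrix arm holds the nuclear-encoded core subunits that bind NADH and pass electrons to ubiquinone, while its membrane arm is built around core subunits encoded by mitochondrial DNA (the mt-Nd genes). Accessory subunits surround both arms, and assembly factors help to build the complex without remaining in it. Osteoclasts are known to be rich in mitochondria.

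Sequencing depth was 33219178 to 42121216 reads assigned to genes per library. All 45 genes passed the filter of at least 1 RPKM (reads per kilobase of gene, scaled to the reads assigned in the library) in at least 3 libraries, which left 12301 genes in the test. The smallest count behind a subunit in any library was 386 reads, and behind an assembly factor 156 reads. The cell type labels were checked against marker genes. All 11 osteoclast markers were detected and all 11 fell in OC, with a summed level of 5165 to 5325 RPKM in OCP and 2780 to 2870 RPKM in OC. Of 8 macrophage markers, 6 rose and 2 fell, and their sum was 1371 to 1437 RPKM in OCP and 1491 to 1553 RPKM in OC. Of 9 stress and handling genes, 8 were tested, of which 6 rose and 1 fell, with sums of 155 to 162 RPKM in OCP and 343 to 368 RPKM in OC. Of 8 neutrophil markers listed, 2 passed the filter and both rose, with sums of 29.8 to 31.7 RPKM in OCP and 41.1 to 45.4 RPKM in OC. Summed markers of B cells, T and NK cells, erythroid cells, megakaryocytes, stromal cells and endothelial cells were at most 4.18 RPKM per list in any library. The osteoclast markers thus go against the stage names, and the groups are called by their labels, OCP and OC, throughout. Whether the labels of the groups were exchanged was not tested, and an exchange would turn around every direction given here. The part of these differences in the results that follow was not tested.

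Transcripts of complex I subunits were lower in OC nearly throughout. Of the 37 subunit genes, 36 fell and 0 rose at an adjusted p under 0.05 in limma, beside 32.1% of all tested genes that fell and 23.5% that rose. In 36 subunits all 3 OC libraries lay below all 3 OCP libraries, which was the case for 36.0% of all tested genes. The median difference of the subunits was -0.54 on the log2(RPKM + 1) scale, from -0.87 for Ndufb6 to -0.19 for Ndufs4, and the median of all tested genes was -0.05. The assembly factors moved less, with 5 of 8 lower, 0 higher and a median of -0.25. Their levels were lower, where the added 1 RPKM compresses the log2 difference more. With 0.1 or 0.01 RPKM added instead, their median was -0.30 or -0.31, and that of the subunits was -0.55 with either. In these bulk libraries, fewer cells with much complex I RNA and less such RNA per cell cannot be told apart.

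**Figure D1:**
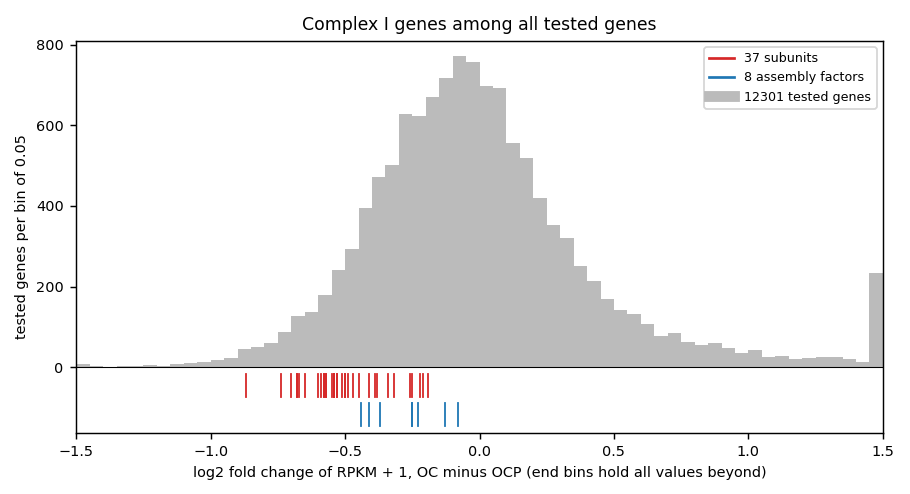
Number of the 12301 tested genes (vertical axis, grey bars, bins of 0.05) at each difference between OC and OCP (horizontal axis, log2(RPKM + 1), OC minus OCP, end bins holding all values beyond), with 1 tick below for each subunit (red) and assembly factor (blue). The subunit ticks run from -0.87 to -0.19 and the assembly factor ticks from -0.44 to -0.08, while the median of all genes is -0.05.

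As a sum over the 37 genes, subunit transcripts reached 3129, 3063 and 3017 RPKM in OCP replicates 1, 2 and 3 and 2164, 2165 and 2140 RPKM in OC replicates 1, 2 and 3. The groups did not overlap, and the OC mean of 2157 ± 14 (SD, n = 3) was 29.7% below the OCP mean of 3070 ± 56.5. These genes took 0.471%, 0.47% and 0.459% of the reads assigned to genes in OCP and 0.33%, 0.331% and 0.324% in OC. The fall was moderate in each gene. By ratios of mean RPKM, 12 subunits were at least 1.5-fold lower in OC and 0 were at least 2-fold lower.

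The 7 nuclear-encoded core subunits of the matrix arm carry the flavin, the iron-sulfur clusters and the ubiquinone-binding pocket, and all 7 fell, with a median of -0.54. Ndufv1, which binds NADH and the flavin mononucleotide, was at 48.9, 54.7 and 50.2 RPKM in OCP and at 35.1, 34.4 and 31.1 RPKM in OC. Its groups were clearly apart, with a difference of -0.60 (SE 0.06, adjusted p = 0.00013). Ndufv2, its neighbour with a binuclear iron-sulfur cluster, was at 114, 99.4 and 104 RPKM in OCP and at 73.8, 72.3 and 72.3 RPKM in OC, a difference of -0.53 (SE 0.06, adjusted p = 0.00012). Ndufs1, the largest core subunit and holder of several iron-sulfur clusters, moved least of the 7. It was at 21.6, 18.7 and 19.9 RPKM in OCP and at 15.7, 15.4 and 16.4 RPKM in OC, a difference of -0.32 (SE 0.06, adjusted p = 0.0027). Its exons partly overlap those of Eef1b2 on the opposite strand, a gene that rose, and the effect of this was not tested.

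Closer to the membrane lies the ubiquinone-binding site. Ndufs7, which holds the last iron-sulfur cluster of the chain next to that site, was at 31.9, 34.2 and 32.4 RPKM in OCP and at 20.4, 21.3 and 19.3 RPKM in OC, a difference of -0.67 (SE 0.05, adjusted p = 2.9e-05). Ndufs8, which carries a pair of tetranuclear iron-sulfur clusters, was at 109, 109 and 113 RPKM in OCP and at 71.5, 72 and 67.1 RPKM in OC, a difference of -0.65 (SE 0.05, adjusted p = 1.4e-05). Ndufs3, a structural core subunit of the same region, was at 47.2, 48.8 and 52.0 RPKM in OCP and at 34.6, 32.6 and 33.7 RPKM in OC, a difference of -0.54 (SE 0.05, adjusted p = 7.1e-05). The summed level of the 7 core genes fell from 567 ± 4.55 to 398 ± 11.3 RPKM (SD, n = 3), 29.8% lower in OC.

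**Figure D2:**
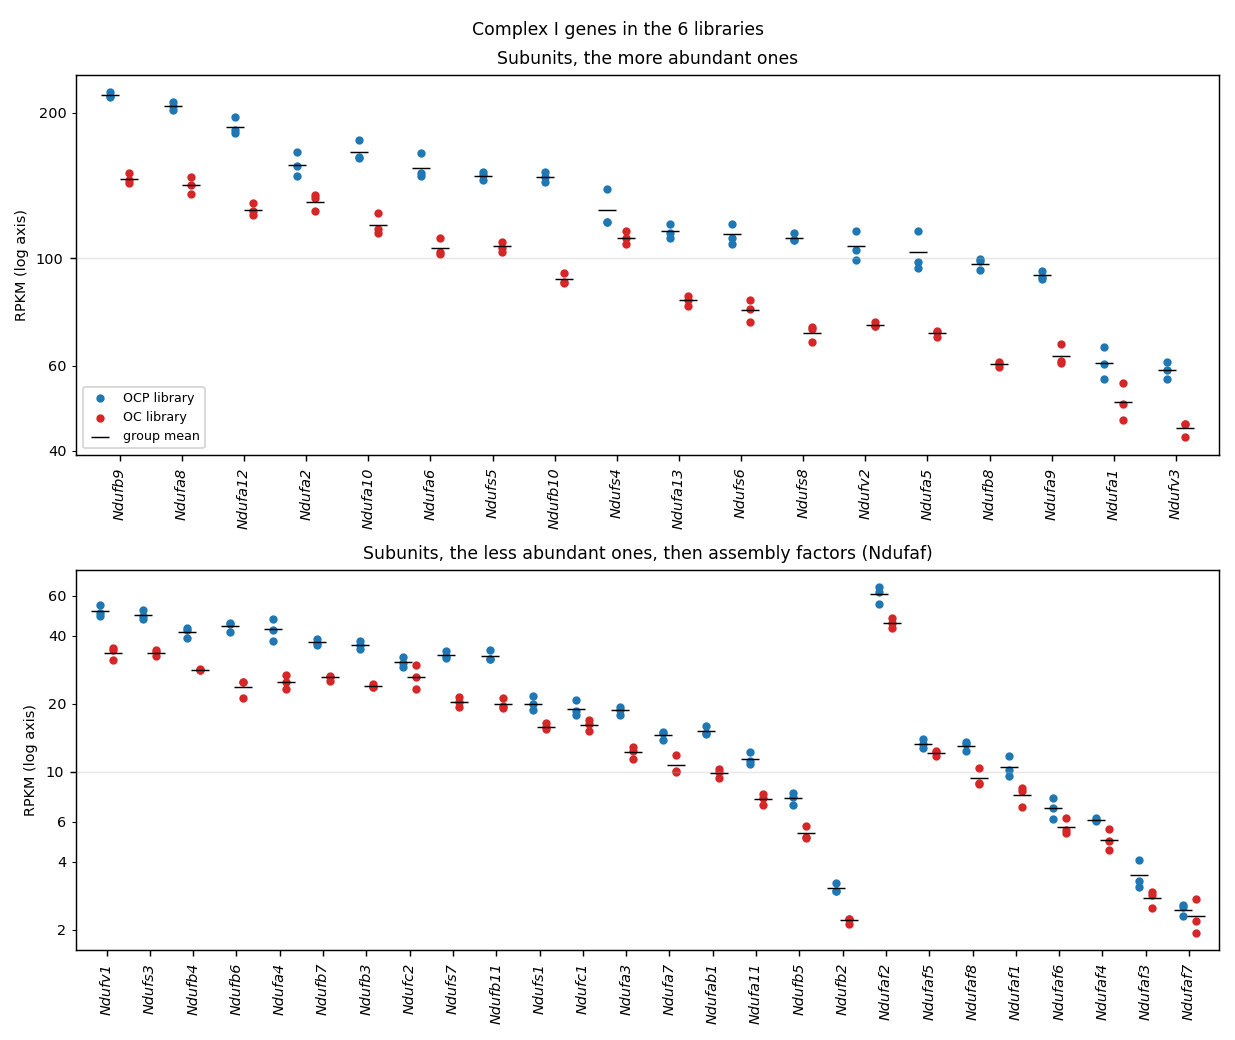
RPKM of complex I genes in each of the 6 libraries (log axes; points are libraries, bars are group means), with the more abundant subunits above and the less abundant subunits and the assembly factors below. The OC points sit under the OCP points in all genes shown except Ndufc2, Ndufaf6 and Ndufaf7, whose groups overlap.

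All 9 accessory subunits of the matrix arm fell, with differences of -0.57 to -0.19 and a median of -0.51. Ndufa12, an accessory subunit bound late in assembly, moved most in this set, from 196, 184 and 182 RPKM in OCP to 123, 130 and 125 RPKM in OC (difference -0.57, SE 0.05, adjusted p = 3e-05). Ndufs4, whose loss causes Leigh-like disease in mice, moved least of all 37 subunits. It was at 139, 119 and 119 RPKM in OCP and at 107, 110 and 114 RPKM in OC, a difference of -0.19 (SE 0.07, adjusted p = 0.042). The groups did not overlap, but the nearest libraries lay close together. The call was lost in 9 of 16 alternative analyses, among them those without OCP replicate 1 or any single OC replicate, with an adjusted p of up to 0.19. Ndufa2, a subunit with a thioredoxin-like fold, was at 166, 155 and 148 RPKM in OCP and at 133, 125 and 135 RPKM in OC, a difference of -0.25 (SE 0.06, adjusted p = 0.0055). The other 6 accessory genes of this arm, Ndufa5, Ndufa6, Ndufa7, Ndufa9, Ndufs6 and Ndufv3, lay between -0.55 and -0.39.

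The membrane arm held both the largest and several of the smallest falls. Of 19 accessory subunits of this arm in the table, 18 fell and 0 rose, with a median of -0.53. The 10 genes named Ndufb, which sit in the distal part of the arm, all fell, with a median of -0.58, whereas 8 of the 9 others fell, with a median of -0.49. Ndufb6, a small single-span subunit (chr4:40270591-40279421, minus strand, GRCm38), was at 41.6, 45.6 and 45.0 RPKM in OCP and at 24.8, 21.1 and 25.0 RPKM in OC. Its OC mean of 23.6 ± 2.21 RPKM was 46.3% below the OCP mean of 44.1 ± 2.14 RPKM, the largest fall of any member (difference -0.87, SE 0.07, adjusted p = 3.7e-05). Exons of the antisense gene Toporsos overlap 39% of the length of Ndufb6. Toporsos itself was at 1.45 to 1.73 RPKM in OCP and 0.942 to 1.76 RPKM in OC and was not called (adjusted p = 0.22).

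Ndufb10 and Ndufb8, both subunits of the distal membrane arm, followed in size. Ndufb10 was at 144, 151 and 147 RPKM in OCP and at 89.0, 93.2 and 89.2 RPKM in OC, a difference of -0.70 (SE 0.04, adjusted p = 6.3e-06). Ndufb8 was at 94.5, 99.6 and 98.6 RPKM in OCP and at 60.3, 61.0 and 59.6 RPKM in OC, a difference of -0.68 (SE 0.04, adjusted p = 6.7e-06). In both, the gap between groups was many times the spread within them. Ndufb11, encoded on the X chromosome, had a difference of -0.68 as well (adjusted p = 4.2e-05), with 31.5 to 34.5 RPKM in OCP and 19.2 to 21.2 RPKM in OC. Ndufb9, a subunit of the LYR-motif family, had the highest RPKM of any subunit over the summed exon length that the table uses, at 221, 216 and 217 RPKM in OCP and 143, 150 and 145 RPKM in OC (difference -0.58, SE 0.04, adjusted p = 1.3e-05).

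At the other end of this arm, Ndufc2 was the single subunit without a call. It was at 32.1, 29.1 and 30.2 RPKM in OCP and at 26.1, 29.7 and 23.1 RPKM in OC. OC replicate 2 lay within the OCP range, and the difference was -0.21 (SE 0.09, adjusted p = 0.069). Without that library the difference was -0.30 with an adjusted p of 0.012. Ndufc1, its small partner, was at 20.7, 17.9 and 18.5 RPKM in OCP and at 16.9, 15.2 and 16.2 RPKM in OC, a difference of -0.22 (SE 0.07, adjusted p = 0.02). That call was lost in 3 alternative analyses, among them the one without OC replicate 2, with an adjusted p of up to 0.07. Ndufa1, an X-linked subunit of the proximal arm, was at 65.6, 60.3 and 56.3 RPKM in OCP and at 46.2, 50 and 55.1 RPKM in OC. Its OC replicate 3 nearly reached the lowest OCP library, and the difference was -0.26 (SE 0.08, adjusted p = 0.021). The call was lost in 6 of 16 alternative analyses, among them those without OCP replicate 1, OC replicate 1 or OC replicate 2, with an adjusted p of up to 0.099.

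Among the remaining membrane-arm genes, the cysteine-rich subunits of the intermembrane face, Ndufa8, Ndufs5 and Ndufb7, differed by -0.54, -0.49 and -0.50. Ndufa13, also known as GRIM-19, differed by -0.47, from 114 ± 3.89 to 81.8 ± 2.03 RPKM. Ndufb2 had the lowest RPKM of any subunit over the summed exon length that the table uses. It was at 2.97, 2.97 and 3.21 RPKM in OCP and 2.23, 2.12 and 2.24 RPKM in OC (difference -0.34, SE 0.06, adjusted p = 0.0018). At this level the added 1 RPKM compresses the log2 difference, and the OC mean was 28.0% below the OCP mean.

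Names in the family do not all stand for dedicated complex I subunits. Ndufab1 is the mitochondrial acyl carrier protein, which also serves fatty acid and iron-sulfur cluster synthesis. It was at 14.8, 15.9 and 14.7 RPKM in OCP and at 9.97, 9.39 and 10.3 RPKM in OC, a difference of -0.57 (SE 0.06, adjusted p = 7.6e-05). Ndufa4 was long counted in complex I and is now placed in cytochrome c oxidase. It was at 47.4, 37.7 and 42.5 RPKM in OCP and at 26.8, 23.2 and 25.0 RPKM in OC, a difference of -0.74 (SE 0.09, adjusted p = 0.00025). Leaving Ndufa4 out, 35 of 36 subunits fell and the median stayed at -0.54. Neither Ndufb1 nor Ndufa4l2 was among the 45 genes that met the naming rule.

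**Figure D3:**
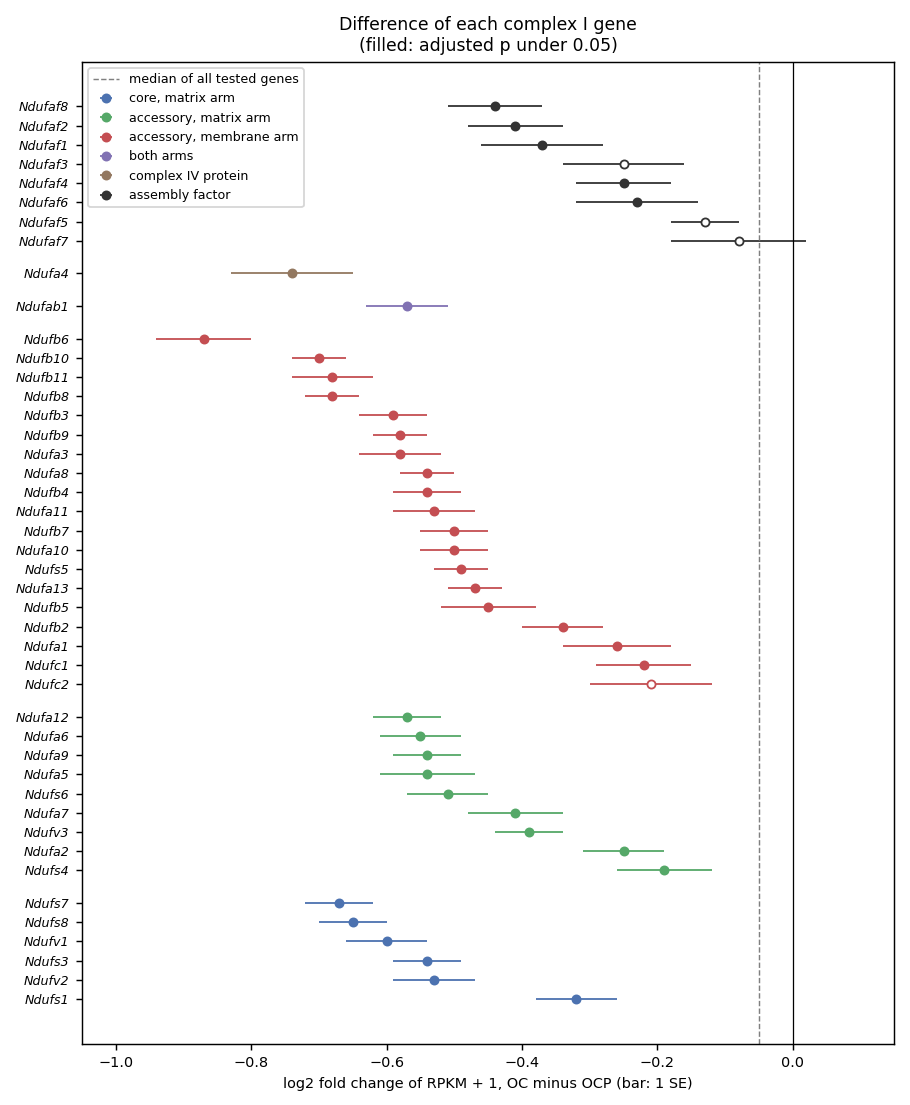
Difference between OC and OCP for complex I genes (log2(RPKM + 1), OC minus OCP, bars show 1 SE), ordered by size within the assembly factors, Ndufa4, Ndufab1 and the parts of the complex, with a dashed line at the median of all tested genes. Differences run from -0.87 for Ndufb6 to -0.08 for Ndufaf7, and hollow points mark the 4 genes with an adjusted p of at least 0.05, namely Ndufc2, Ndufaf3, Ndufaf5 and Ndufaf7.

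Subunits of this complex are present in equal numbers except for the acyl carrier protein, yet their transcript levels spread widely. The highest subunit level was 69.3 times the lowest in RPKM and 108 times the lowest per kilobase of principal transcript. The order of levels was nearly the same in both groups (Spearman's rho 0.987 across 37 genes, which are not independent replicates and share the libraries). Across the same genes, the difference showed little relation to level (rho -0.0424) or to gene length (rho 0.129). RPKM divides by the summed exon length of a gene, and for 8 of the 45 genes that length was more than 2 times that of the principal transcript, so their level is understated. Ndufb7 had a length of 4522 bases in the table against 623 in its principal transcript. Per kilobase of principal transcript, Ndufb8 ranked first with mean levels of 451 in OCP and 279 in OC on the RPKM scale, and Ndufb7 took rank 4 with 271 and 189. Ndufb2 remained last with 3.93 and 2.83, but this rank depends on the transcript used. The longest of the best-ranked principal transcripts was taken, which has 4371 bases for Ndufb2. Its 396 to 703 reads per library were near those of Ndufa3, which had 386 to 836 reads and a principal transcript of 515 bases. The spreads of 69.3 and 108 times also have Ndufb2 as their lowest gene. The length is the same in every library, so ratios between groups do not depend on it.

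The 8 assembly factors were expressed at a lower level, with a median of 8.69 RPKM in OCP and 6.8 RPKM in OC, against 58.7 and 44.5 RPKM for the subunits. The highest was Ndufaf2, a paralog of Ndufa12 that occupies its place during assembly. It was at 62.2, 55 and 65.5 RPKM in OCP and at 48.0, 43.4 and 45.4 RPKM in OC, a difference of -0.41 (SE 0.07, adjusted p = 0.0017). The ratio of Ndufa12 to Ndufaf2, chosen after its values were seen, overlapped between groups, at 3.15, 3.35 and 2.78 in OCP and 2.56, 2.99 and 2.76 in OC.

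Ndufaf8 and Ndufaf5 work together, Ndufaf8 holding Ndufaf5 stable and Ndufaf5 hydroxylating an arginine of Ndufs7. Ndufaf8 was at 12.3, 13.5 and 13.3 RPKM in OCP and at 8.91, 10.4 and 8.81 RPKM in OC, the largest fall among the assembly factors (difference -0.44, SE 0.07, adjusted p = 0.0012). Ndufaf5 was at 13.3, 14.0 and 12.7 RPKM in OCP and at 12.4, 12.2 and 11.7 RPKM in OC. Its groups did not overlap, but the gap was small and the gene was not called (difference -0.13, SE 0.05, adjusted p = 0.075). Ndufaf1, which acts in assembly of the membrane arm, was at 11.7, 9.61 and 10.2 RPKM in OCP and at 8.47, 6.98 and 8.25 RPKM in OC, a difference of -0.37 (SE 0.09, adjusted p = 0.0087).

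Ndufaf3 and Ndufaf4 bind each other and act on the ubiquinone-binding module. Ndufaf4 was at 6.23, 6.03 and 6.12 RPKM in OCP and at 4.92, 4.51 and 5.59 RPKM in OC, a difference of -0.25 (SE 0.07, adjusted p = 0.02). The call was lost in 5 of 16 alternative analyses, among them those without OCP replicate 3, OC replicate 1 or OC replicate 2, with an adjusted p of up to 0.063. Ndufaf3 was at 4.07, 3.08 and 3.3 RPKM in OCP and at 2.85, 2.95 and 2.49 RPKM in OC, with the same difference of -0.25 but no call (SE 0.09, adjusted p = 0.054). OCP replicate 1 lay above its group for this gene. Ndufaf6, a member of the squalene and phytoene synthase family, was at 6.15, 7.67 and 6.88 RPKM in OCP and at 6.22, 5.34 and 5.54 RPKM in OC. It was called lower (difference -0.23, SE 0.09, adjusted p = 0.046) although OC replicate 1 lay above OCP replicate 1. The call was lost in 9 of 16 alternative analyses, among them those without OCP replicate 2 or 3 or OC replicate 2 or 3, with an adjusted p of up to 0.13. Ndufaf7, an arginine methyltransferase of the complex, was at 2.29, 2.56 and 2.51 RPKM in OCP and at 1.94, 2.74 and 2.19 RPKM in OC. Its OC libraries spanned the OCP range, with a difference of -0.08 (SE 0.10, adjusted p = 0.53). The summed level of the 8 factors was 22.3% lower in OC, at 118, 111 and 120 RPKM in OCP and 93.7, 88.5 and 89.9 RPKM in OC. Of the mean OCP sum of 117 RPKM, Ndufaf2 alone held 60.9 RPKM, so this sum follows that gene most. The ratio of summed subunits to summed assembly factors was 26.5, 27.5 and 25 in OCP and 23.1, 24.5 and 23.8 in OC, so the OC libraries lay below the OCP libraries.

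Assembly factors with other names were also examined. Of 12 such genes listed, 8 were tested, of which 3 fell, a share near the 32.1% of all tested genes, 0 rose and the median was -0.14. Timmdc1, which acts on the membrane arm, was at 15.8, 15.2 and 16.8 RPKM in OCP and at 12.3, 11.8 and 11.2 RPKM in OC (difference -0.41, adjusted p = 0.00051). Ecsit, Acad9 and Tmem126b form the intermediate assembly complex with Ndufaf1. Ecsit (-0.37, adjusted p = 0.00084) and Acad9 (-0.17, adjusted p = 0.027) fell, whereas Tmem126b had a positive difference of 0.21 with no call (adjusted p = 0.11).

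The 7 core subunits encoded by mitochondrial DNA all fell too, with a median of -0.44, but they spread more between replicates. mt-Nd2, a proton-pumping subunit, had the largest fall, from 664, 597 and 631 RPKM in OCP to 372, 394 and 410 RPKM in OC (difference -0.68, SE 0.06, adjusted p = 3.2e-05). mt-Nd1, the membrane subunit next to the ubiquinone-binding site, was at 1954, 1403 and 1486 RPKM in OCP and at 1059, 1075 and 1238 RPKM in OC. OCP replicate 1 stood above the other 2, and the difference was -0.51 (SE 0.13, adjusted p = 0.014). mt-Nd4, another pumping subunit, was at 865, 657 and 698 RPKM in OCP and at 522, 558 and 545 RPKM in OC (difference -0.44, adjusted p = 0.0063). mt-Nd4l, a short subunit whose reading frame overlaps that of mt-Nd4, was at 2318, 1764 and 1843 RPKM in OCP and at 1360, 1548 and 1483 RPKM in OC (difference -0.42, adjusted p = 0.011). mt-Nd3 was at 135, 124 and 137 RPKM in OCP and at 91.1, 94 and 102 RPKM in OC (difference -0.46, adjusted p = 0.00035).

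The genes mt-Nd5 and mt-Nd6 lie next to each other on opposite strands, and their values are uncertain because the use of strand in counting is not given in the sources used here. mt-Nd5 was at 1060, 871 and 965 RPKM in OCP and at 797, 808 and 860 RPKM in OC (difference -0.23, adjusted p = 0.027). mt-Nd6 was at 1695, 1417 and 1584 RPKM in OCP and at 1220, 1181 and 1408 RPKM in OC (difference -0.30, adjusted p = 0.018). Their groups did not overlap, but the nearest libraries were close. Without OC replicate 2, 4 of the 7 mt-Nd genes were called lower. The ratio of summed nuclear-encoded subunits to summed mt-Nd genes overlapped between groups, at 0.36, 0.448 and 0.411 in OCP and 0.399, 0.383 and 0.354 in OC.

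The fall was not limited to complex I. Of 7 tested genes listed for complex II (succinate dehydrogenase and its assembly factors), 6 fell, with a median of -0.35. The subunits Sdha, Sdhb, Sdhc and Sdhd all fell (-0.39, -0.64, -0.37 and -0.19), most in Sdhb (adjusted p = 7e-05). The gene without a call was the assembly factor Sdhaf1 (-0.02). All 9 nuclear-encoded genes listed for complex III fell, with a median of -0.61 and the largest fall in Uqcr11 (-0.78, adjusted p = 6.5e-06). All 10 listed for complex IV fell, with a median of -0.46 and the largest fall in Cox5b (-0.75, adjusted p = 2.4e-06). All 15 listed ATP synthase genes in the table fell, with a median of -0.44 and the largest fall in Atp5k (-0.93, adjusted p = 2.7e-05). Mitochondrially encoded members of these complexes were not in the lists. A list of 15 genes for general mitochondrial content (citrate synthase, porins, import and chaperone proteins) had 14 lower and a median of -0.46, with the largest fall in Phb (-0.72, adjusted p = 1.1e-05).

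Of 3 factors of respiratory supercomplexes, Cox7a2l fell (-0.21, adjusted p = 0.009), while Higd1a and Higd2a each had a difference of 0.04 with no call. The Cox7a2l call was lost with quantile normalization. Dnajc15, an inner membrane protein known to restrain complex I, also fell (-0.24, adjusted p = 0.0027).

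Set against the other complexes library by library, complex I was intermediate in summed RPKM. Summed complex I subunits over the summed complex II list, assembly factors included, went from a mean of 8.24 in OCP to 7.58 in OC. The ratio to the mitochondrial content list went from 2.04 to 1.94, and in both every OC library lay below every OCP library. The ratio to complex III went from 1.68 to 1.76 and that to complex IV from 2.00 to 2.13, with every OC library above every OCP library. The complex I sum includes Ndufa4, at a mean of 42.6 RPKM in OCP and 25 RPKM in OC, which the complex IV list leaves out. The ratio to ATP synthase overlapped between groups. Sums follow the most abundant genes, and Cox5b and Cox4i1 held 518 and 388 of the mean complex IV sum of 1538 RPKM in OCP. By median difference per gene, complex IV fell less (-0.46) than the complex I subunits (-0.54), the reverse of its ratio. Complex III (-0.61) fell more, and complex II (-0.35) and the content list (-0.46) fell less, as in their ratios. ATP synthase had a median of -0.44. These ratios and medians are descriptions, and the differences between lists were not tested.

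**Figure D4:**
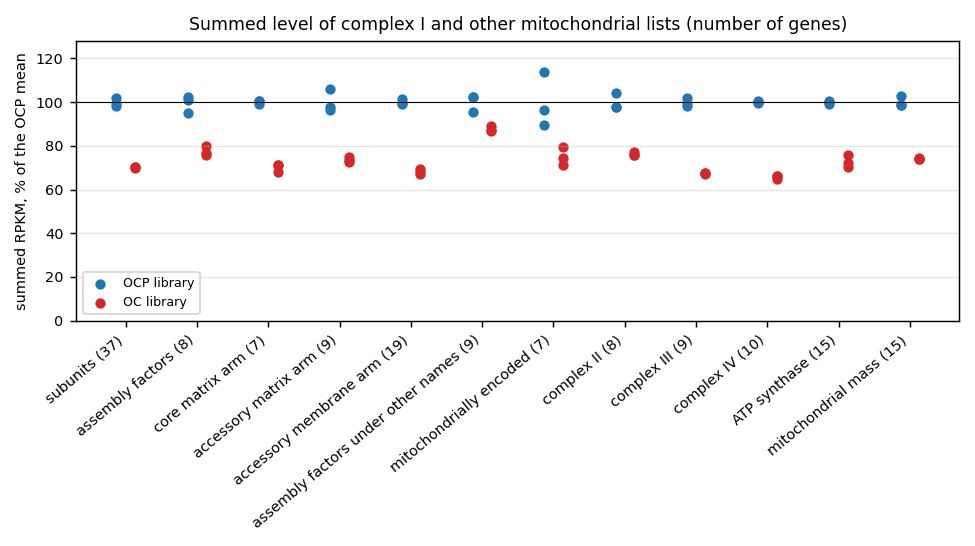
Summed RPKM of each gene list in each library, as a percent of the mean of the 3 OCP libraries (points are libraries, gene numbers in parentheses). OC sums lie below OCP sums in every list, with complex I subunits 29.7% lower, assembly factors 22.3%, complex III 32.7%, complex IV 34.2% and ATP synthase 27.3% lower. The lists of complex III, complex IV and ATP synthase hold nuclear-encoded genes only, and that of complex II includes its assembly factors. Ndufa4 is counted with the complex I subunits.

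Regulators of respiration genes were called lower at about the share of all tested genes. Of 12 tested, 4 fell, 1 rose and the median was -0.03, beside 32.1% of all tested genes that fell and their median of -0.05. Ppargc1b encodes PGC-1beta, a coactivator of mitochondrial biogenesis that osteoclasts are known to use, and it had the largest fall. It was at 44.6, 50.4 and 48.4 RPKM in OCP and at 29.4, 31.1 and 30.5 RPKM in OC (difference -0.64, SE 0.06, adjusted p = 4.4e-05). Esrra, a nuclear receptor that PGC-1 coactivators bind, was at 15.8, 15.9 and 15.4 RPKM in OCP and at 14.6, 13.4 and 13.8 RPKM in OC (difference -0.16, adjusted p = 0.021). Yy1, a zinc finger factor, was the one called higher, at 19.8, 19.5 and 21.1 RPKM in OCP and at 23.2, 21.2 and 27 RPKM in OC (difference 0.23, adjusted p = 0.049). That call lay at the threshold and was lost without OCP replicate 1, 2 or 3, without OC replicate 1 or 3, with no filter on low values and without the trend and robust options. Gabpa, an ETS factor, was at 11.6, 10.4 and 11.3 RPKM in OCP and at 11.4, 10.6 and 12.5 RPKM in OC and was not called (difference 0.05, adjusted p = 0.61). Pprc1, a further PGC-1 family member, was not called either (difference -0.13, adjusted p = 0.066).

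As a description, the promoters of the complex I genes were searched for the letters of sites known for such regulators. RefSeq windows of 300 bases on GRCm38.p6, from 250 before to 50 after the start, were given for 40 of the 45 genes. On both strands the letters GCGCATGCG (the core of the NRF1 site) were in 4 of 40 genes (10%), against 4.59% of the 8004 tested genes with a window. The letters AAGATGGCG (YY1) were in 6 genes (15%) against 4.07%, CCGGAAG (ETS factors such as GABPA) in 6 genes (15%) against 22.1%, and TCAAGGTCA (ERR) in 0 against 0.35%. At least 1 of the 4 motifs was in 15 genes (37.5%), against 28.7%. Over all 32851 windows, the shares with each motif were 1.75% for NRF1, 1.4% for YY1, 8.86% for ETS, 0.423% for ERR and 11.7% for any. These matches describe letters in a window, not binding.

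The 6 YY1 matches all began after the start, on the strand of the gene, 11 to 36 bases into the transcript. They are printed to show that shared placement, 5′ to 3′ on the strand of the gene, with the motif in capitals. The motif contains ATG, the start codon of translation, and whether these matches are translation starts was not tested.
Ndufaf8 (chr11:120098934-120098962, plus strand): ggcagggcccAAGATGGCGgcgccctcga
Ndufc1 (chr3:51408915-51408943, minus strand): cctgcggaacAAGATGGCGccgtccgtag
Ndufs7 (chr10:80249463-80249491, plus strand): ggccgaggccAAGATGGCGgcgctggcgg
Ndufa9 (chr6:126849097-126849125, minus strand): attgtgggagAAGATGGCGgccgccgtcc
Ndufs6 (chr13:73328433-73328461, minus strand): agggtcaccggcAAGATGGCGgcggtgct
Ndufs4 (chr13:114388045-114388073, minus strand): cgtttgcctacaggAAGATGGCGgcggtc
The differences of these 6 genes ran from -0.67 for Ndufs7 to -0.19 for Ndufs4, with Ndufa9, Ndufs6, Ndufaf8 and Ndufc1 at -0.54, -0.51, -0.44 and -0.22.

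The 4 NRF1 matches lay at varied places, from 113 bases before the start in Ndufaf4 to 17 bases into the transcript in Ndufaf5. They are shown because this palindromic core is the best-known element of nuclear respiratory genes, and the capitals mark it on either strand.
Ndufaf4 (chr4:24897960-24897988, plus strand): ccagatgtctGCGCATGCGCctgtgcgga
Ndufa11 (chr17:56717692-56717720, plus strand): cctgcactgcGCGCATGCGCgcacgcctt
Ndufa8 (chr2:36049329-36049357, minus strand): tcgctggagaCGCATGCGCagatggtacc
Ndufaf5 (chr2:140170652-140170680, plus strand): agtcccgttgGCGCATGCGCctaatagaa
The differences of these genes were -0.25 for Ndufaf4, -0.53 for Ndufa11, -0.54 for Ndufa8 and -0.13 for Ndufaf5.

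None of the 4 subunits with the largest falls, Ndufb6, Ndufa4, Ndufb10 and Ndufb8, held the NRF1, YY1 or ERR letters in its window. Of these 4, Ndufb6 alone held an ETS match, read on the opposite strand from 232 bases before the start. The 250 bases upstream of Ndufb6 are printed as the promoter of the gene that moved most, with that match in capitals.
Ndufb6 (chr4:40279422-40279671, minus strand): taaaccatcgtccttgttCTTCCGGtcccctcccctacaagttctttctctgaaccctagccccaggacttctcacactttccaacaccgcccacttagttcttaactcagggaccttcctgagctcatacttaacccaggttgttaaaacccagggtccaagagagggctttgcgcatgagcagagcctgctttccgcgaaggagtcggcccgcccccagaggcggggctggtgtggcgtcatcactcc

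Several complex I genes share exons or sequence with other genes, which counting could have mixed. Exons of another gene overlapped 14 of the 45, most in Ndufb6 (39%, Toporsos) and Ndufa13 (30.0%, Tssk6). Tssk6 was at 0.203 to 0.566 RPKM in every library. Other partners were more abundant, and some were called lower, some higher and some not at all. Ndufs1 overlaps Eef1b2 and Ino80dos, both on the opposite strand, over 6.16% of its length. Eef1b2 was at 148 to 152 RPKM in OCP and 171 to 185 RPKM in OC (difference 0.24, adjusted p = 0.0024). What such partners add to the values was not tested. Of the 24 subunits without such an overlap, 23 fell, with a median of -0.54. Near copies in the annotation, at least 85% identical, were found for 23 of the 45 genes. The copies present in the table held at most 3.99% of the reads of their parent, in Ndufs5. Of the 16 subunits with no near copy, 15 fell, with a median of -0.54. By the table, 20 of the 37 subunit genes were at most 1500 bases long. Among tested genes of at most 1500 bases 30.1% fell and 20.6% rose, beside 19 of these 20 subunits that fell.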

How the data were processed

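RNA-seq libraries were made from total RNA (TRIzol, 2 ug into a stranded mRNA kit), per the labels' protocols. The submitters' processing notes list Trimmomatic 0.36, STAR 2.5.3a, featureCounts (no version) and build GRCh38. The samples are mouse, and 95.8% of the gene names matched mouse GENCODE M21. Of the genes, 22288 had the same start and end there, among them 32 of the 45 members. Positions are therefore given on its build, GRCm38. Strand setting and multimapping are not given in the sources used here. The authors deposited RPKM values. Multiplied by gene length they gave whole reads within 0.05 for 100% of nonzero values.

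All genes reaching 1 RPKM in 3 or more libraries were compared as log2(RPKM + 1) in limma 3.58.1 (R 4.3.3; trend, robust), two-sided, with Benjamini-Hochberg adjustment over 12301 genes and a threshold of 0.05. Near copies came from blastn 2.17.0. The fit was tested on simulated data. The members and lists were chosen with earlier results of these data known. By rule, the text names core subunits, the 4 largest and 4 smallest subunit changes, the extreme levels, genes with no call, all assembly factors and the extremes of each list. Other genes were chosen after their values were seen. Alternatives covered filter, pseudocount, scaling, voom, length, block and left-out libraries. Values of 1 core subunit are not reported here, but it is counted in the lists.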

Additional observations from a re-analysis of the deposited data

How the results depend on the processing

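Across 16 alternative analyses, 33 of the 36 lower subunits kept their call in every one that tested them, 0 members were called higher, and 716 of 717 differences were negative (the exception was Ndufaf7 at 0.0 without OC replicate 1). The subunit count ranged from 33 (TMM scaling, or no filter on low values) to 36. The subunit median was -0.51 with voom on recovered reads, -0.48 with quantile normalization and -0.47 with TMM, which moved the median of all genes by 0.06 and gave 3471 genes higher and 3224 lower, against 2889 and 3954. A filter at a mean of 5 RPKM gave 1645 higher and 2904 lower of 7228. Assembly factors were less stable. Their count of 5 lower was 3 with no filter and with TMM, and 3 to 5 when each library was left out in turn, with 3 without OCP replicate 3 or OC replicate 2. Their median was -0.31 with a mean of at least 5 RPKM, -0.30 and -0.31 with pseudocounts of 0.1 and 0.01, -0.29 with quantile normalization, -0.19 with TMM, -0.27 with voom and -0.29 to -0.24 when each library was left out. Calls were lost for Ndufs4 and Ndufaf6 in 9 analyses each (adjusted p 0.032 to 0.19 and 0.017 to 0.13 over all), Ndufa1 in 6, Ndufaf4 in 5 and Ndufc1 in 3, and the cause was not tested. Ndufaf3 was called lower with quantile normalization and without OCP replicate 2. Correlations of deviations were -0.115, 0.143 and 0.0142 between same-numbered libraries and -0.278 to 0.257 between libraries of unlike number. With 3 libraries per group, they cannot show whether equal numbers mark a shared mouse or culture. A replicate block gave 35 subunits and 4 assembly factors lower.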

Other observations

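The name Ndufab1-ps, left out by the rule, is a pseudogene of Ndufab1. It was at 2.64, 2.58 and 2.33 RPKM in OCP and at 1.47, 1.54 and 1.68 RPKM in OC, so all 3 OC libraries lay below all 3 OCP libraries (limma difference -0.46, SE 0.07, adjusted p = 0.0008). Its values rest on 24 to 52 reads per library.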
